A study of Mus musculus with 20 samples.

Results

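Collagens and the enzymes that process them were described in the hippocampus of young and old mice under 2 kinds of housing. The genes were chosen by name, with earlier results of these data known. They are every protein-coding gene whose GRCm38 symbol has the form Col, number, a, number, together with 13 genes of procollagen processing (P4ha1 to P4ha3, P3h1, Crtap, Plod1 to Plod3, Serpinh1, Lox and Loxl1 to Loxl3). This gave 57 of the 47729 gene identifiers of the count table, 44 of them collagens. Of these, 54 genes (42 collagens and 12 processing genes) had at least 10 counts in at least 5 libraries, and the same 54 were among the 16692 genes tested. The remaining 3 genes were not tested. Loxl2, a lysyl oxidase of which 45% of the sequence words also occur in other genes, and Col17a1, a collagen of epithelial junctions, reached 10 counts in 0 libraries. Col10a1, the collagen of growth cartilage, reached 10 counts in 1 library, 5mSC replicate 3.

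Hippocampus of male C57BL/6 mice was sampled in 4 groups of 5 libraries. Old mice, aged 24 months, lived in an enriched environment (24mEE) or a standard cage (24mSC), and young mice, aged 5 months, likewise (5mEE, 5mSC). No mutant allele, transgene or drug is named for any group. Per the study, the old enriched mice entered the enriched cages, which held running wheels, only late in life, and it does not describe the young enriched mice. The numbers of the libraries only name them. The labels do not say that the libraries of a group came from separate mice, so p values measure the spread between these samples.

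Collagens are secreted proteins of 3 chains wound into a triple helix. Inside the cell, prolyl hydroxylases stabilise the helix, lysyl hydroxylases prepare cross-links, and Serpinh1 (HSP47) escorts the folded helix out of the endoplasmic reticulum, while lysyl oxidases cross-link the chains outside the cell. In brain, the fibrillar collagens of types I and III are mostly made by fibroblasts of the meninges and around vessels. Type IV collagen lies in the basement membrane of vessels, and some members such as Col25a1 are made by neurons. Because whole tissue was sequenced, fewer cells of a type and less RNA per cell cannot be told apart.

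The libraries held between 11 and 34.1 M counts, and 3 counts, taken here as the limit of detection, correspond to 0.0882 to 0.329 CPM. CPM is the count of a gene scaled to a common library total on the TMM scale. The 11 markers of hippocampal neurons were detected in every library. Library 5mSC replicate 3 stood apart, with 26.8% of its counts in mitochondrial ribosomal RNA against 0.883 to 1.82% in the other 19 libraries. It was the highest 5mSC library for 41 of the 54 genes. The like count over all genes was not made, so this describes the library and is not a result about collagens. The 10 choroid plexus markers summed to 393 CPM there and to at most 149 CPM in the libraries of the other groups.

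Levels were first compared between genes as CPM per kb of exon, as mean ± SD over the 20 libraries. The median of the 54 genes was 0.746 CPM per kb, below the median of 3.89 CPM per kb over all genes tested. P4ha1, the catalytic subunit of the main prolyl 4-hydroxylase, was the most abundant at 17.2 ± 2.92 CPM per kb. Its counterpart P4ha2 stood at 3.76 ± 0.595 CPM per kb, with a median ratio of P4ha1 to P4ha2 of 4.77 (2.26 to 5.62 over libraries). P4ha2 is sensitive to the length used, since with the longest transcript in place of all exons its level was 7.66 CPM per kb and the median ratio 2.38. The chaperone Serpinh1 stood at 5.8 ± 1.27 CPM per kb. Among lysyl hydroxylases Plod3, which also glycosylates collagen, led at 6.19 ± 0.529 CPM per kb, ahead of Plod1 at 3.6 ± 0.441 CPM per kb. Among the oxidases Loxl3 (1.06 ± 0.0929 CPM per kb) and Loxl1 (1.05 ± 0.536 CPM per kb) did not differ beyond their spread. Lox itself, at 0.0874 CPM per kb, reached 10 counts in only 7 libraries. Exons of Plod3 and Loxl3 overlap genes on the opposite strand over 11.7% and 11.6% of their length, and reads from the 2 strands cannot be separated in these libraries.

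**Figure D1:**
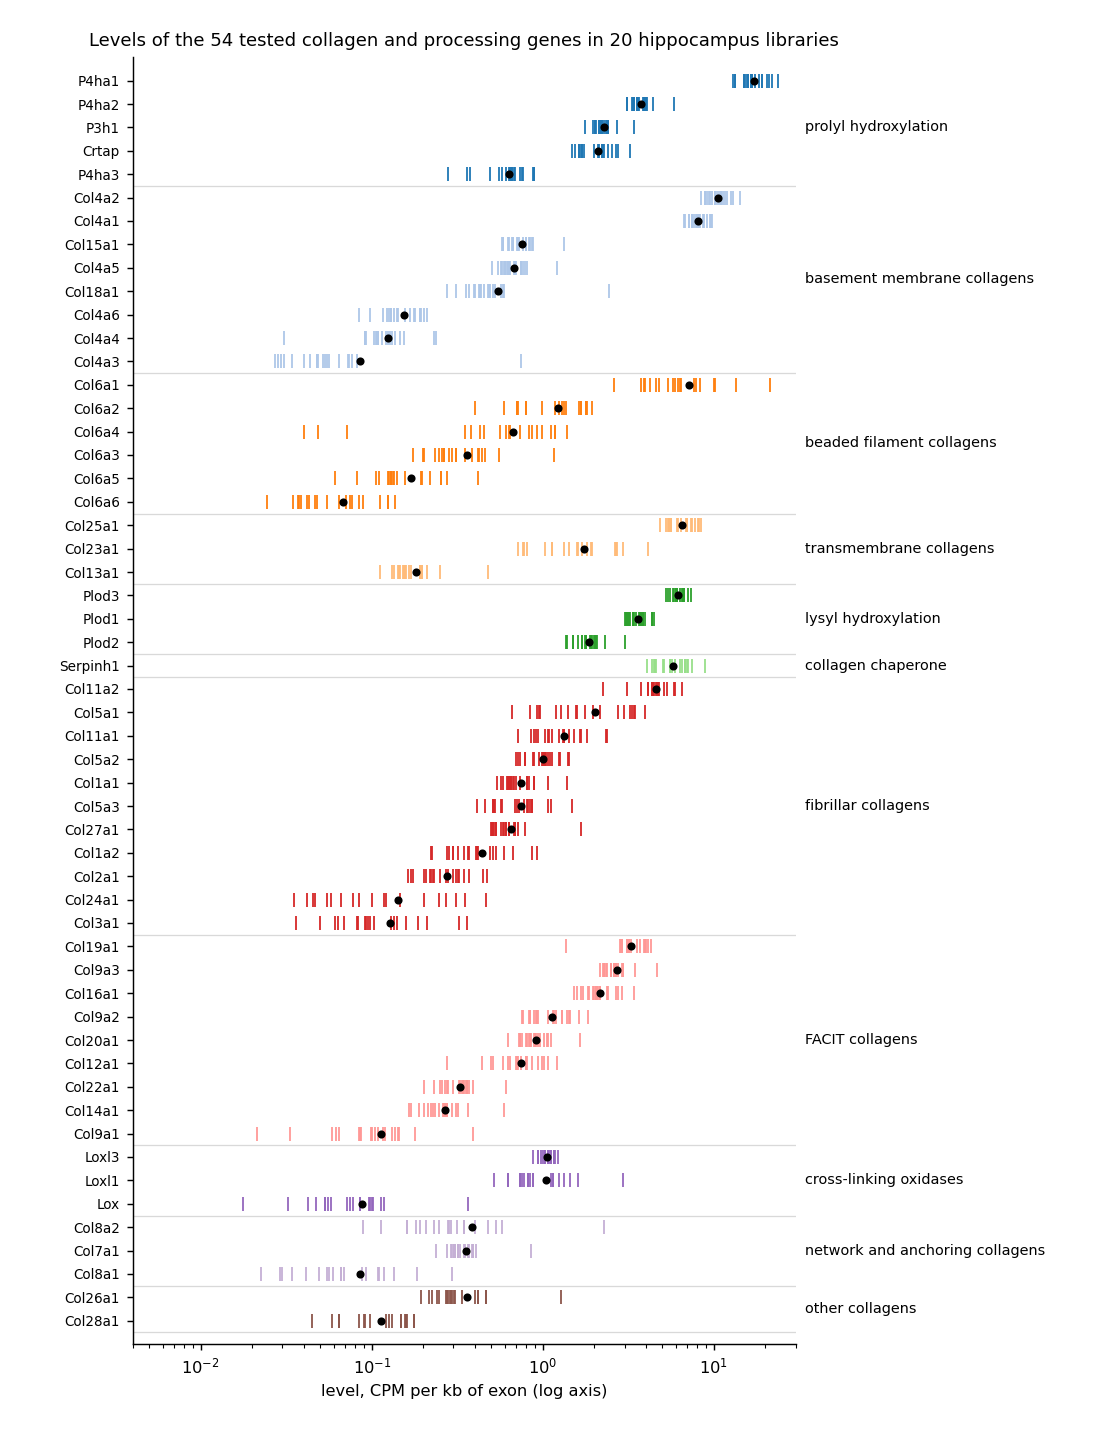
Level of each of the 54 tested genes in CPM per kb of exon on a log axis, grouped by role; each tick is 1 of the 20 libraries and the black dot is their mean. Libraries with 0 counts (1 each for Col24a1 and Col28a1) cannot be drawn on a log axis. P4ha1, Col4a2, Col4a1, Col6a1 and Col25a1 lie highest, and a single far-right tick in several genes, such as Col18a1 and Col8a2, is 5mSC replicate 3.

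Of the collagens, the basement membrane chains Col4a2 (10.6 ± 1.48 CPM per kb) and Col4a1 (8.06 ± 0.933 CPM per kb) ranked first by exon length, whereas with the longest transcript Col25a1, at 12.5 CPM per kb, was above Col4a2 (10.9) and Col4a1 (9.09). Col4a1 and Col4a2 lie head to head on GRCm38 chromosome 8 (Col4a1 at 11198423 to 11312826 on the minus strand, Col4a2 at 11312805 to 11449287 on the plus strand). The ratio of Col4a1 to Col4a2 was below 1 in all 20 libraries (median 0.77, range 0.622 to 0.92). Next came Col6a1, a chain of beaded filaments, at 7.13 ± 4.22 CPM per kb, and its partner Col6a2 stood at 1.22 ± 0.48 CPM per kb, a median ratio of 5.68 (3.47 to 13.1), or 3.58 with the longest transcript. The membrane collagen Col25a1, known for its deposition in amyloid plaques, reached 6.48 ± 1.09 CPM per kb, and Col23a1, another membrane collagen, 1.74 ± 0.895 CPM per kb. Col11a2 (4.56 ± 0.943 CPM per kb) and Col5a1 (2.02 ± 1.05 CPM per kb) were the leading fibrillar chains by exon length, but with the longest transcript Col11a1 (2.21 CPM per kb) was above Col5a1 (2.04 CPM per kb). Col19a1 (3.27 ± 0.643 CPM per kb) and Col9a3 (2.7 ± 0.553 CPM per kb) led the fibril-associated (FACIT) collagens. The network and anchoring chains Col8a2 (0.385 CPM per kb) and Col7a1 (0.357 CPM per kb) and the remaining collagens Col26a1 (0.36 CPM per kb) and Col28a1 (0.113 CPM per kb) were lower still. Col1a1, the main chain of type I collagen, had 0.747 CPM per kb and Col1a2 0.442 CPM per kb, but their order turned round with the longest transcript as length (median ratio 0.835 in place of 1.75).

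Genes differed in how much they varied between libraries. The coefficient of variation over the 20 libraries was 8.55% for Plod3, 8.8% for Loxl3 and 11.6% for Col4a1. It was 183% for Col4a3, 120.4% for Col8a2 and 82.2% for Col18a1, and without 5mSC replicate 3 these values were 33.7%, 47.7% and 19.4%. For Col6a1 and Col24a1 the variation did not depend on that library (59.1% with it and 59.6% without for Col6a1, 88.6% and 92.7% for Col24a1). Col6a1 had 92.7, 18.6, 43.6, 17.1 and 11.4 CPM in 5mEE. Col24a1, a fibrillar chain, had 0, 2.37, 0.317, 0.266 and 0.641 CPM in 24mEE and 0.918, 3.56, 0.895, 1.89 and 0.767 CPM in 24mSC. Its highest library was also the one with the highest mean log2 CPM of the 8 neocortex markers in 3 of the 4 groups.

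The first comparison, 24mSC against 5mSC, addresses age in a standard cage. By edgeR's quasi-likelihood test with Benjamini-Hochberg adjustment over all genes, 1 of the 54 genes passed an adjusted p of 0.05, Col6a6, where 0.803% of all genes passed. At an unadjusted p under 0.05, 6 genes were higher and 10 lower in 24mSC, against 8.72% and 11.7% of all genes. The median log2 fold change of the 54 genes was −0.12 and that of all genes −0.01. DESeq2's Wald test passed 7 of the 54 genes, where 4.55% of all genes passed.

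Col6a6, an alternative chain of type VI collagen (ENSMUSG00000043719, chromosome 9, 105687809 to 105828160), had 1.02, 0.775, 1.14, 0.702 and 1.25 CPM in 24mSC, against 0.396, 0.427, 0.438, 0.385 and 0.344 CPM in 5mSC. Every 24mSC library lay above every 5mSC library, as in 1.68% of all genes. The gene rose by edgeR's test (log2 fold change 1.31 ± 0.301, where ± gives the SE; adjusted p = 0.0433). It is a low gene, with 4 to 28 counts a library. It passed in only 5 of 15 alternatives by edgeR or DESeq2, and its adjusted p ranged from 0.0135 to 0.171 over them.

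Serpinh1, the collagen chaperone (ENSMUSG00000070436, chromosome 7, 99345376 to 99353239), had 15.5, 10.5, 12.5, 12.3 and 13.6 CPM in 24mSC, against 18.2, 16.9, 15.9, 21.6 and 14.4 CPM in 5mSC. The groups overlapped only in 24mSC replicate 1, which lay above 5mSC replicate 5 (log2 fold change −0.44 ± 0.111, adjusted p = 0.0551). P4ha1 (ENSMUSG00000019916, chromosome 10, 59323296 to 59373304) had 65.5, 53.4, 54.9, 68.8 and 67.6 CPM in 24mSC, against 86.2, 79, 54.5, 97.1 and 89.7 CPM in 5mSC. Only 5mSC replicate 3 reached down into the old group (log2 fold change −0.40 ± 0.113, adjusted p = 0.0756). P4ha2 (ENSMUSG00000018906, chromosome 11, 54100095 to 54131665) had 22.5, 19.3, 22.2, 22.2 and 20.9 CPM in 24mSC, against 25.1, 24.7, 36.6, 27.4 and 24.2 CPM in 5mSC. The groups did not overlap, as in 1.56% of all genes in this direction, and 5mSC replicate 3 was the highest library (log2 fold change −0.35 ± 0.0991, adjusted p = 0.0722). In all, 10 of the 12 processing genes had a log2 fold change below 0, where 52.0% of all genes did. Of these, 5 had an unadjusted p under 0.05, where 11.7% of all genes were lower at that threshold. Without 5mSC replicate 3 these numbers were 10 and 4, against 50.4% and 11.7% of all genes.

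The 250 bases before the start sites of Serpinh1 and P4ha1 are shown because both fell with age once 5mSC replicate 3 was left out. They come from RefSeq on GRCm38.p6, where 43 of the 57 genes had a promoter window. Capitals mark ACGTG, the core of the hypoxia response element, searched on both strands (CACGT on the other). At least 1 match lay in 16.6% of the 32817 windows of all genes and in 21.3% of the 47 windows of the 43 genes. Those windows belong to 10 genes. The heat shock element, the CCAAT box and the TATA box were searched too, and none had a match in the 2 windows shown. A match is a description of the letters and not a binding site.
Serpinh1, chr7:99353240-99353489, minus strand: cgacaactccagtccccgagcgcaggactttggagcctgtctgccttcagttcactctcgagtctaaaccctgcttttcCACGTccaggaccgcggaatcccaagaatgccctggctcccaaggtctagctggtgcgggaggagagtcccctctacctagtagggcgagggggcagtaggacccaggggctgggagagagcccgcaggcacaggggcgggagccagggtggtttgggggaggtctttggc
P4ha1, chr10:59323046-59323295, plus strand: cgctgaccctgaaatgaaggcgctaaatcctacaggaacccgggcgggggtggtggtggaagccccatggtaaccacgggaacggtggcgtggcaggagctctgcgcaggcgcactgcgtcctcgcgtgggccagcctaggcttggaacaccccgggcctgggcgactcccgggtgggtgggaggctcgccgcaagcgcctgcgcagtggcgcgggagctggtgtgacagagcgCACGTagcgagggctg

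Fibrillar chains lay on both sides of 0. Col2a1, the cartilage-type collagen (ENSMUSG00000022483, chromosome 15, 97975602 to 98004695), had 2.96, 4.34, 4.11, 2.86 and 2.59 CPM in 24mSC, against 2.12, 2.99, 1.86, 1.51 and 1.56 CPM in 5mSC. The groups overlapped through 5mSC replicate 2 (log2 fold change 0.76 ± 0.19996, adjusted p = 0.0628). Col3a1, the type III chain of soft connective tissue (ENSMUSG00000026043, chromosome 1, 45311538 to 45349706), had 1.38, 0.62, 1.02, 0.486 and 0.671 CPM in 24mSC, against 1.33, 2.07, 3.18, 3.56 and 0.939 CPM in 5mSC. The groups overlapped, and the highest 5mSC libraries were replicates 3 and 4 (log2 fold change −1.37 ± 0.375, adjusted p = 0.0701). Col1a2, the partner of Col1a1 in type I collagen, had 5.15, 3.41, 3.5, 3.73 and 6.38 CPM in 24mSC, against 8.35, 6.09, 10.7, 11.5 and 4.54 CPM in 5mSC. The groups overlapped, and replicates 3 and 4 were again the highest of 5mSC (log2 fold change −0.89 ± 0.259, adjusted p = 0.0805 by edgeR).

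The same 5mSC libraries carried more RNA of fibroblast markers. The mean log2 CPM of the 10 meningeal and perivascular fibroblast markers was 1.86 to 2.38 in 24mSC, and in 5mSC it was 3.19 in replicate 3, 3.39 in replicate 4 and 2.41 to 2.51 in the other 3 libraries. All 10 markers had a log2 fold change below 0 (median −0.78), 8 of them with an unadjusted p under 0.05 and 0 passing the adjusted threshold of edgeR's test. Their summed level was 62.3 to 126 CPM in 24mSC (median 95.6 CPM) and 80.7 to 177 CPM in 5mSC (median 96.9 CPM, highest in replicate 3). None of the markers was at 0 in any library. Without 5mSC replicate 3, 8 of 10 were below 0 (median −0.70), 7 with an unadjusted p under 0.05, and Fmod, a collagen-binding proteoglycan, fell by edgeR (−1.34 ± 0.352, adjusted p = 0.0397). By mean log2 CPM, the highest library of these markers was also that of Serpinh1 in 3 of the 4 groups. The same held for Col4a6 and Plod2, and for Col1a2 and Col3a1 it held in fewer groups. The part of these markers in the values of Serpinh1, Col1a2 and Col3a1 was not tested.

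**Figure D2:**
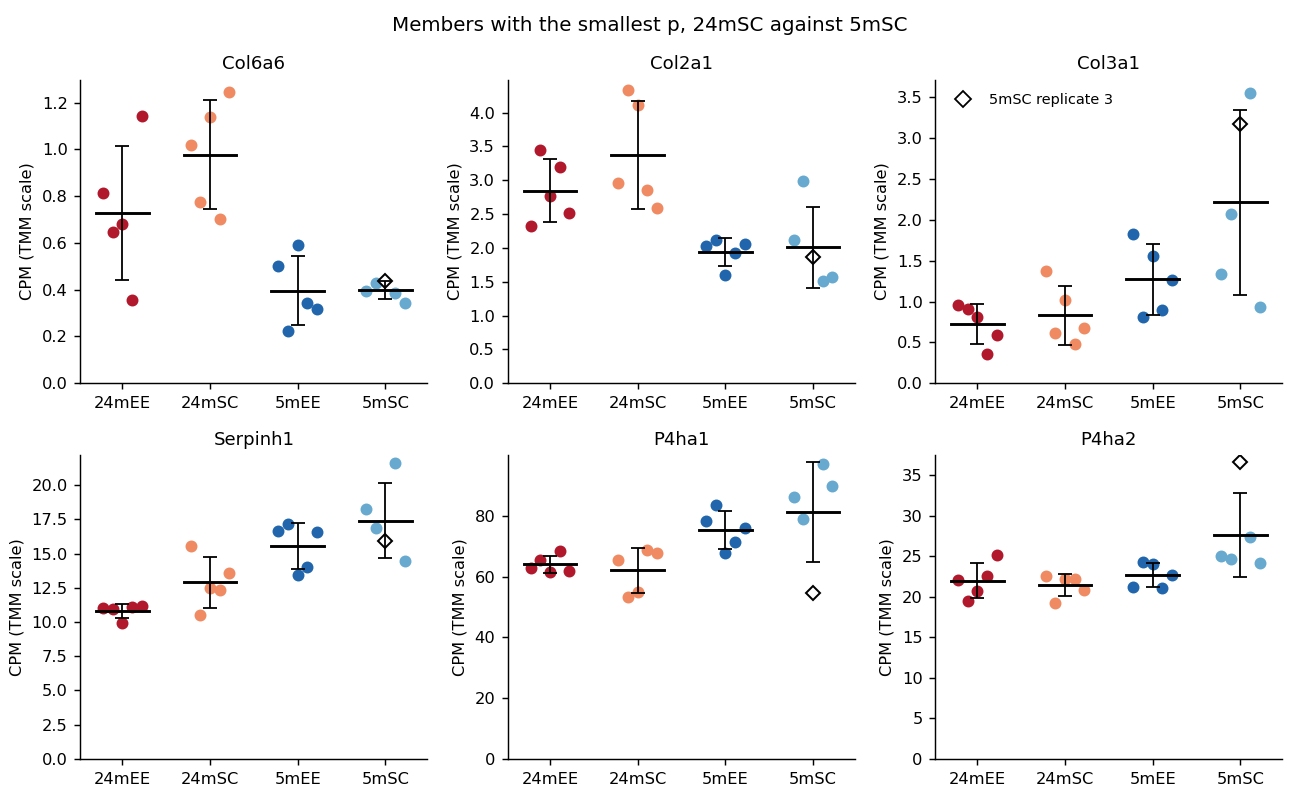
CPM of the 6 genes with the smallest p between 24mSC and 5mSC, in all 4 groups; points are libraries, the dash and bar are mean ± SD (n = 5), and the open diamond is 5mSC replicate 3. Col6a6 in 24mSC lies at 0.702 to 1.25 CPM, above all 5mSC libraries, and Serpinh1 in 24mEE lies at 9.92 to 11.2 CPM.

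Leaving out 5mSC replicate 3 turned the sign of the median. It became 0.04 in place of −0.12, with 22 in place of 34 genes below 0, where 50.4% of all genes were below 0, and 40 of the 54 genes kept their sign. At an unadjusted p under 0.05 it left 12 genes higher and 6 lower in 24mSC, against 10.6% and 11.7% of all genes. Then 6 genes passed edgeR's test, where 3.58% of all genes passed. P4ha1 fell (log2 fold change −0.51 ± 0.0804, adjusted p = 0.00236) and so did Serpinh1 (−0.47 ± 0.113, adjusted p = 0.0263). Col6a6 rose (1.34 ± 0.299, adjusted p = 0.0208), as did Col2a1 (0.76 ± 0.199, adjusted p = 0.0397), Col5a3, a minor type V chain (0.67 ± 0.161, adjusted p = 0.0269), and Col8a1, a network chain of vessel walls (1.41 ± 0.375, adjusted p = 0.0407). With all 20 libraries Col8a1 had 0.867, 0.517, 1.06, 0.918 and 1.44 CPM in 24mSC, against 0.324, 0.427, 2.3, 0.267 and 0.438 CPM in 5mSC. Replicate 3 alone lay above the old group, and the other 4 young libraries lay below it. With both 5mSC replicates 1 and 3 left out, P4ha1, Col5a3 and Col6a6 passed, where 2.14% of all genes passed. Without 5mSC replicate 2, 8 genes passed, where 6.67% of all genes passed. Without 5mSC replicate 5 only Serpinh1 passed, where 0.451% of all genes passed, and without 5mSC replicate 1 or 4 or any 24mSC replicate 0 genes passed.

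**Figure D3:**
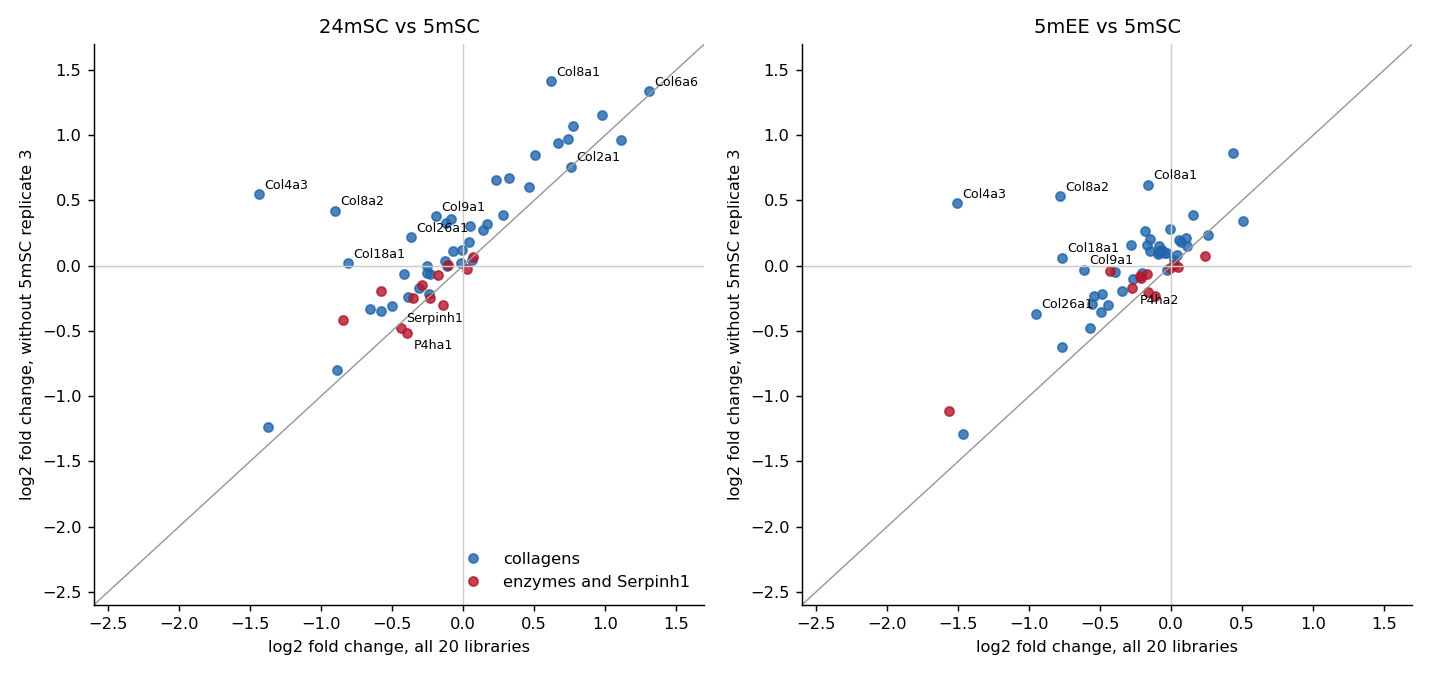
Log2 fold change of the 54 genes with all 20 libraries (x axis) and without 5mSC replicate 3 (y axis), for 24mSC against 5mSC (left) and 5mEE against 5mSC (right); blue points are collagens, red points are enzymes and Serpinh1, and the grey diagonal marks equal values. Points lie mostly above the diagonal in both panels.

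Counts by class are a description and were not tested against each other. All 8 basement membrane chains were below 0 with all libraries, where 52.0% of all genes were (median −0.31), 1 of them with an unadjusted p under 0.05, and 4 were below 0 without 5mSC replicate 3 (median 0.01). This included Col4a3, which had 0.479 to 0.733 CPM in 24mSC, against 7.45 CPM in 5mSC replicate 3 and 0.282 to 0.474 CPM in the remaining libraries of 5mSC. Of the 6 beaded filament chains 4 were above 0 (median 0.48), and 3 were higher at an unadjusted p under 0.05, where 8.72% of all genes were, and without that library the median was 0.81. Col6a3, the long chain of type VI collagen, had 3.36, 3.72, 5.05, 4.97 and 13.9 CPM in 24mSC, against 2.09, 2.38, 5.26, 3.71 and 2.79 CPM in 5mSC. The groups overlapped, and 24mSC replicate 5 was far above the rest (log2 fold change 0.98 ± 0.324, adjusted p = 0.113 by edgeR). Choroid plexus markers, Col8a2 and Col9a3 were all highest in 5mSC replicate 3, which was the highest 5mSC library for 41 of the 54 genes. That library had 10.2 CPM of Col8a2 against 0.72 to 1.25 CPM in the other 4 of its group, and 18 CPM of Col9a3 against 9.02 to 13.2 CPM. The highest library of Col8a2 was also the highest in choroid plexus markers in 3 of the 4 groups. The same held for Col6a6, Col8a1, Col5a3, Col6a1, Col9a1 and Plod2. Col9a3 was the lowest of 24mEE, at 8.29 CPM, in replicate 5, the library of that group highest in these markers. All 10 of these markers were detected in every library, and their part in the values of these genes was not tested.

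**Figure D4:**
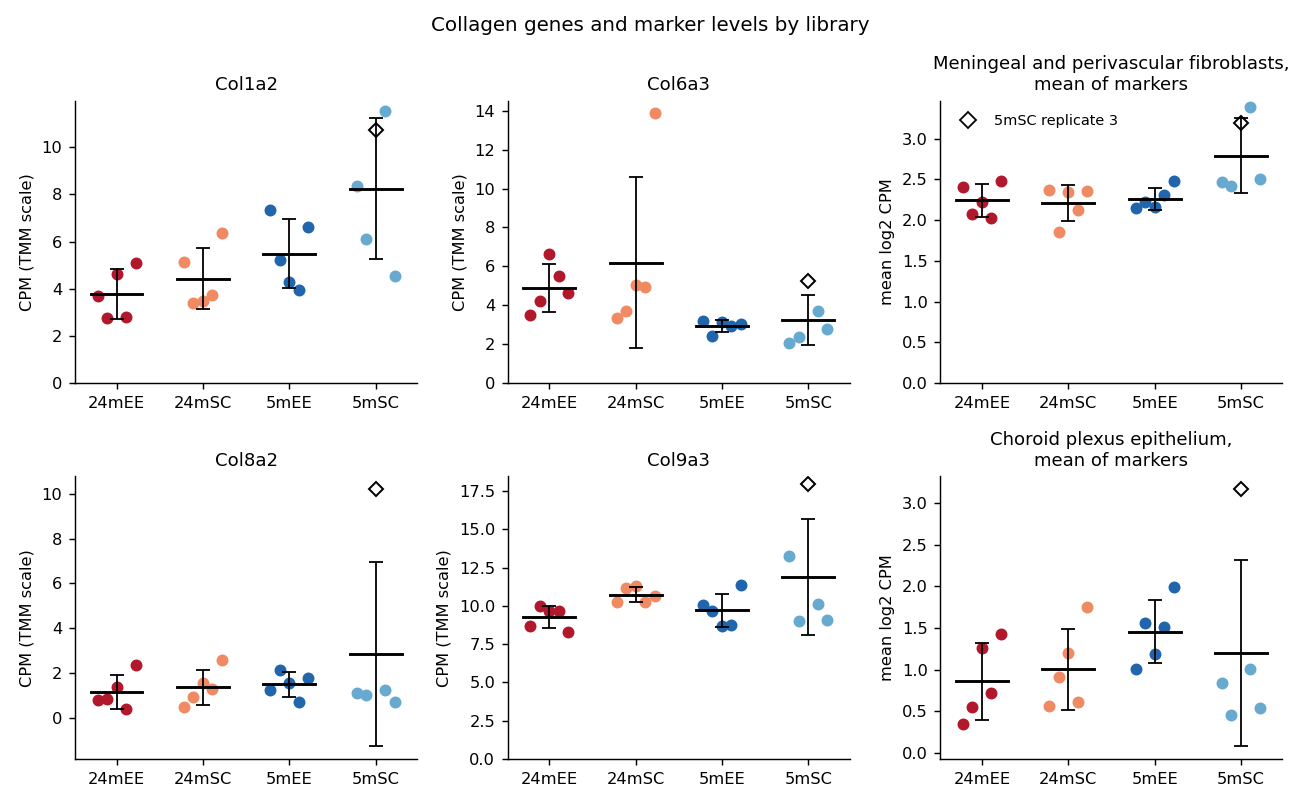
Col1a2 and Col6a3 beside the mean log2 CPM of the fibroblast markers (top), and Col8a2 and Col9a3 beside that of the choroid plexus markers (bottom), by group; points are libraries, the dash and bar are mean ± SD (n = 5), and the open diamond is 5mSC replicate 3. That library holds the highest choroid plexus value, 3.16, and 10.2 CPM of Col8a2.

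Housing of old mice was addressed by 24mEE against 24mSC. By edgeR's test 0 of the 54 genes passed, as did 0.00% of all genes, and by DESeq2's Wald test also 0 passed. At an unadjusted p under 0.05, 1 gene was higher and 6 were lower in 24mEE, against 2.22% and 3.99% of all genes. The median log2 fold change was −0.11, with 35 of 54 genes below 0, where 50.6% of all genes were below 0. In 3 genes the groups did not overlap, all lower in 24mEE, as 1.93% of all genes were.

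Col23a1, a membrane collagen (ENSMUSG00000063564, chromosome 11, 51289920 to 51583918), had 6.46, 9.25, 4.08, 4.39 and 9.11 CPM in 24mEE, against 15.1, 10.9, 15.5, 10.4 and 23.7 CPM in 24mSC. Each 24mEE library was below each 24mSC library (log2 fold change −1.18 ± 0.35, adjusted p = 0.375 by edgeR). It passed in a fit of these 2 groups alone (adjusted p = 0.0475), where 1.17% of all genes passed. In young mice the gene averaged 8.82 ± 4.15 CPM in 5mEE and 9.24 ± 4.92 CPM in 5mSC (SD, n = 5 each). Col16a1, a FACIT collagen (chromosome 4, 130047840 to 130099283), had 10.6, 13.9, 14.5, 12.6 and 13.2 CPM in 24mEE, against 18, 19.6, 18.5, 14.6 and 16.1 CPM in 24mSC. The groups did not overlap, although their nearest libraries were almost equal (log2 fold change −0.42 ± 0.142, adjusted p = 0.495). Col9a2, a chain of type IX collagen (chromosome 4, 121039385 to 121055322), had 2.36, 4.26, 2.58, 2.88 and 2.61 CPM in 24mEE, against 5.05, 4.44, 4.4, 3.56 and 3.98 CPM in 24mSC. The groups overlapped through 24mEE replicate 2 alone (log2 fold change −0.54 ± 0.183, adjusted p = 0.495). Col9a3, its partner chain, was the remaining gene without overlap (9.28 ± 0.732 CPM in 24mEE and 10.7 ± 0.497 CPM in 24mSC; log2 fold change −0.21 ± 0.144, adjusted p = 0.999 by edgeR).

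Col11a1, a chain of cartilage-type fibrils (chromosome 3, 114030540 to 114220718), had the opposite sign, with 17, 13.2, 20.9, 23.2 and 16.8 CPM in 24mEE, against 11.6, 15.9, 11.9, 10.9 and 9.11 CPM in 24mSC. Only 24mSC replicate 2 reached into the enriched group (log2 fold change 0.62 ± 0.24, adjusted p = 0.624). Col8a1 (chromosome 16, 57624258 to 57754737) had 0.517, 0.387, 0.227, 0.177 and 0.687 CPM in 24mEE, against the 24mSC values given above. The lowest 24mSC library, replicate 2, lay within the 24mEE range and the other 4 lay above it (log2 fold change −1.26 ± 0.514, adjusted p = 0.667). Col5a1, a chain of type V collagen (chromosome 2, 27886425 to 28039514), had 10.1, 28, 7.79, 8.11 and 14.9 CPM in 24mEE, against 28.8, 33.7, 27.3, 23.4 and 16.6 CPM in 24mSC. Of the 24mEE libraries only replicate 2 lay within the 24mSC range (log2 fold change −0.91 ± 0.388, adjusted p = 0.691). All 8 neocortex markers were also below 0 in this comparison (median −0.36), 3 with an unadjusted p under 0.05 and 0 passing edgeR's test. Their summed level was 166 to 262 CPM in 24mEE, highest in replicate 2, and 224 to 291 CPM in 24mSC. The markers and Col5a1 had the same highest library in 24mEE and 5mEE. Their highest libraries differed in 24mSC (replicate 4 for the markers, replicate 2 for Col5a1) and in 5mSC (replicates 2 and 3). None of the markers was at 0 in a library, and their part in the Col5a1 values was not tested. With 5mSC replicates 1 and 3 left out of the common fit, 11 genes were lower and 1 higher at an unadjusted p under 0.05, against 7.33% and 6.43% of all genes, and 0 passed edgeR's test.

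**Figure D5:**
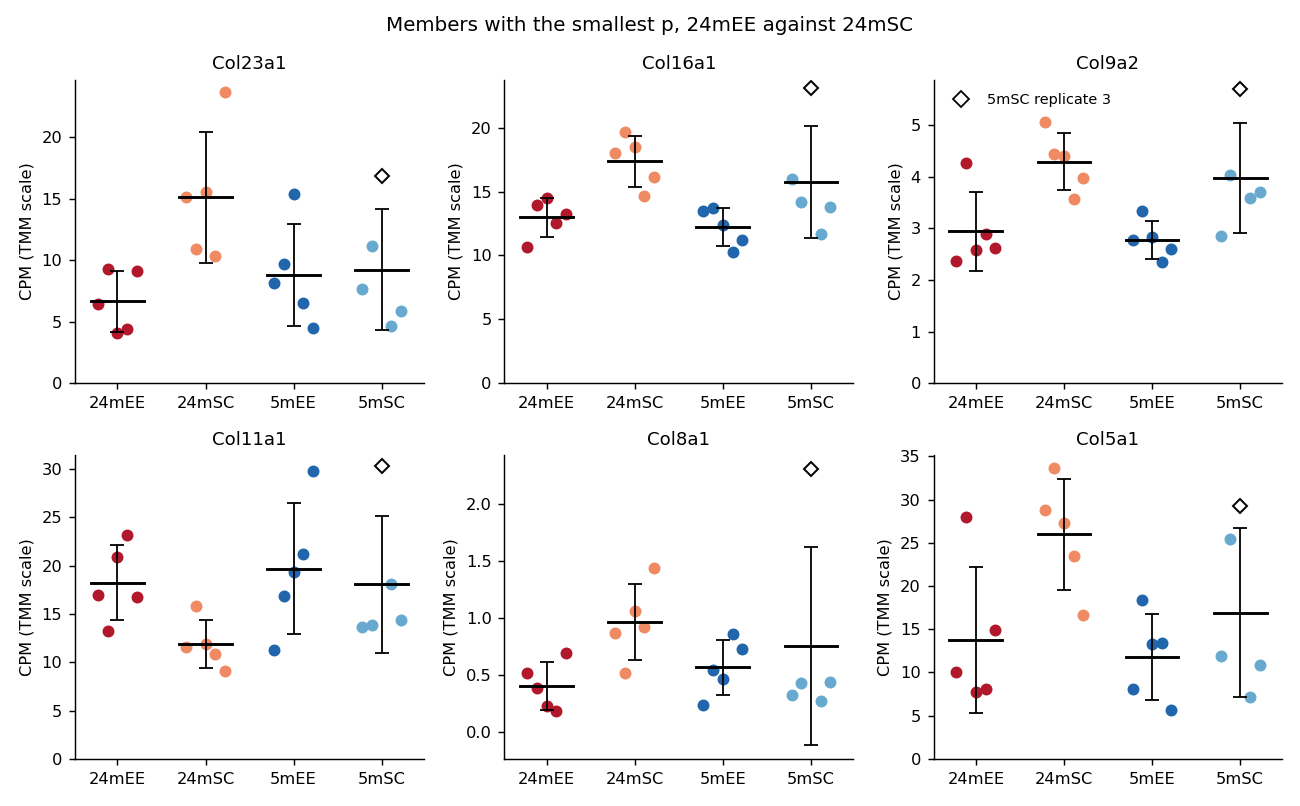
CPM of the 6 genes with the smallest p between 24mEE and 24mSC, in all 4 groups; points are libraries, the dash and bar are mean ± SD (n = 5), and the open diamond is 5mSC replicate 3. Col23a1 spans 4.08 to 9.25 CPM in 24mEE, below its span of 10.4 to 23.7 CPM in 24mSC, and Col11a1 is the one gene of the 6 with the higher mean in 24mEE.

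Housing of young mice, 5mEE against 5mSC, shares the 5mSC libraries with the age comparison. By edgeR's test 0 of the 54 genes passed, as did 0.00% of all genes, and by DESeq2's Wald test 0 passed. At an unadjusted p under 0.05, 11 genes differed in either direction, against 16.5% of all genes, and all 11 were lower in 5mEE. Without 5mSC replicate 3 there were 0 higher and 6 lower, against 4.72% and 8.04% of all genes, and 0 passed edgeR's test. Without 5mSC replicates 1 and 3 there were 2 higher and 5 lower, and the share of all genes in that fit is not given. The median log2 fold change was −0.16 with all libraries and 0.05 without 5mSC replicate 3. The genes below 0 were 41 with all libraries (53.9% of all genes) and 25 without it (51.6% of all genes). Lox, the founding lysyl oxidase (chromosome 18), had 0.265, 0.225, 0.0843, 0.256 and 0.253 CPM in 5mEE, against 0.468, 0.488, 1.75, 0.563 and 0.407 CPM in 5mSC. These are 2 to 9 counts a library in 5mEE and 8 to 19 in 5mSC. Each 5mEE library was below each 5mSC library, as in 0.875% of all genes. The log2 fold change by edgeR was −1.56 ± 0.417 (adjusted p = 0.223), and −1.12 ± 0.315 without 5mSC replicate 3 (adjusted p = 0.302).

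The other 5 genes with the smallest p were each highest in 5mSC replicate 3. Col26a1, a collagen of the extracellular matrix, had 2.03, 2.38, 2.23, 1.96 and 1.83 CPM in 5mEE, against 2.52, 3.78, 10.4, 2.28 and 2.35 CPM in 5mSC. Only replicate 3 lay far from the rest, and the log2 fold change of −0.95 ± 0.337 (adjusted p = 0.225) was −0.37 ± 0.199 without it. Col6a4, an alternative chain of type VI collagen, had 3.88, 3.64, 4.81, 0.341 and 0.411 CPM in 5mEE, against 6.3, 2.99, 11.7, 8.48 and 7.04 CPM in 5mSC. It was far lower in 5mEE replicates 4 and 5 than in the other 5mEE libraries, and the groups overlapped (log2 fold change −1.47 ± 0.604, adjusted p = 0.255; −1.29 ± 0.587 without 5mSC replicate 3). P4ha2 had 21.2, 24.2, 24.1, 21.1 and 22.7 CPM in 5mEE, against the 5mSC values given above. The enriched libraries all lay below the mean of the standard cage and overlapped with it at 5mSC replicate 5 (log2 fold change −0.27 ± 0.0984, adjusted p = 0.226; −0.17 ± 0.0754 without 5mSC replicate 3). Col1a1 had 5.47, 4.14, 4.26, 4.39 and 4.24 CPM in 5mEE, against 5.79, 4.81, 9.09, 6.996 and 4.44 CPM in 5mSC. The groups overlapped through 5mEE replicate 1 (log2 fold change −0.45 ± 0.166, adjusted p = 0.228; −0.30 ± 0.139 without 5mSC replicate 3). Col9a2 had 2.76, 3.33, 2.82, 2.34 and 2.59 CPM in 5mEE, against 2.84, 4.02, 5.7, 3.59 and 3.69 CPM in 5mSC. They overlapped through 5mSC replicate 1 (log2 fold change −0.49 ± 0.184, adjusted p = 0.233; −0.35 ± 0.159 without 5mSC replicate 3). Fibroblast markers were again below 0 in 10 of 10 (median −0.64), and their part in the Col1a1 values was not tested. Their summed level was 72.5 to 91.8 CPM in 5mEE (median 78.2 CPM) and 80.7 to 177 CPM in 5mSC (median 96.9 CPM, highest in replicate 3). When 5mSC replicate 3 was left out, 8 of 10 were below 0 (median −0.53).

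Age under enrichment, 24mEE against 5mEE, was compared in libraries that do not include 5mSC, although the fit estimates 1 common spread. By edgeR's test 0 of the 54 genes passed, where 0.108% of all genes passed, and by DESeq2's Wald test Serpinh1 passed, where 0.234% of all genes passed. At an unadjusted p under 0.05, 5 genes were higher and 5 lower, against 2.71% and 1.90% of all genes. The lower count was 2 without 5mEE replicate 1, 2 or 5 or without 24mEE replicate 1, and 8 without 5mSC replicates 1 and 3 in the fit. The share of all genes in those fits is not given. Serpinh1 had 11, 10.9, 9.92, 11.1 and 11.2 CPM in 24mEE, against 16.6, 17.2, 13.4, 14 and 16.5 CPM in 5mEE. The groups did not overlap, as in 1.13% of all genes in this direction, and the 24mEE libraries lay close together. By edgeR the log2 fold change was −0.52 ± 0.11 (adjusted p = 0.0888). The adjusted p was 0.00683 by DESeq2 and 0.0186 in an edgeR fit of the 2 groups alone, where 0.324% of all genes passed. The mean level of Serpinh1 was 10.8 ± 0.509 CPM in 24mEE, 12.9 ± 1.84 CPM in 24mSC, 15.6 ± 1.71 CPM in 5mEE and 17.4 ± 2.72 CPM in 5mSC (SD, n = 5 each). Neither difference between housings passed edgeR's test (log2 fold change −0.25 ± 0.112, adjusted p = 0.72 at 24 months, and −0.17 ± 0.109, adjusted p = 0.443 at 5 months).

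Col2a1 had 2.33, 3.44, 2.76, 3.19 and 2.52 CPM in 24mEE, against 2.03, 2.11, 1.6, 1.92 and 2.06 CPM in 5mEE. All old libraries lay above all young ones, as in 1.63% of all genes (log2 fold change 0.55 ± 0.197, adjusted p = 0.738). Col5a3 had 5.76, 4.69, 5.57, 4.83 and 7.65 CPM in 24mEE, against 3.53, 3.6, 3.88, 3.11 and 3.92 CPM in 5mEE. These groups did not overlap either (log2 fold change 0.66 ± 0.242, adjusted p = 0.753). Without overlap, 4 of the 54 genes were higher in 24mEE, against 1.63% of all genes, and 1 was lower, Serpinh1, against 1.13%. Also among the higher were Col6a3 (3.51 to 6.66 CPM in 24mEE, 2.43 to 3.17 CPM in 5mEE) and Lox, a gene with few counts (0.275 to 0.408 CPM in 24mEE, 0.0843 to 0.265 CPM in 5mEE). With 5mSC replicates 1 and 3 left out of the fit, Col5a3 and Serpinh1 passed edgeR's test (adjusted p = 0.0289 and 0.034), where 0.572% of all genes passed. Col6a6 had 0.813, 0.645, 0.68, 0.354 and 1.14 CPM in 24mEE, against 0.4997, 0.225, 0.59, 0.341 and 0.316 CPM in 5mEE. It overlapped through 24mEE replicate 4 (log2 fold change 0.87 ± 0.295, adjusted p = 0.664 by edgeR). Plod1, a lysyl hydroxylase, had 20.7, 22.7, 26.7, 21.9 and 20.9 CPM in 24mEE, against 23.8, 29.6, 24.7, 25.1 and 29.2 CPM in 5mEE. The groups overlapped through 24mEE replicate 3 (log2 fold change −0.23 ± 0.0898, adjusted p = 0.84 by edgeR). Col6a4 had 5.39, 10.02, 7.34, 7.93 and 3.25 CPM in 24mEE, against the 5mEE values given above. The groups overlapped through 24mEE replicate 5 (log2 fold change 1.38 ± 0.60003, adjusted p = 0.983). Serpinh1, Col6a6 and Col2a1 were among the 6 genes with the smallest p in both age comparisons.

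The interaction asks whether the housing difference at 24 months differed from that at 5 months. By edgeR's test 0 of the 54 genes passed, as did 0.00% of all genes, and by DESeq2's Wald test 0 passed. At an unadjusted p under 0.05, 2 genes were above 0 and 1 below, against 4.40% and 3.61% of all genes. The smallest p by edgeR were those of Lox (1.51 ± 0.593, adjusted p = 0.621), Col23a1 (−1.17 ± 0.496, adjusted p = 0.621) and P4ha2 (0.31 ± 0.14, adjusted p = 0.621), then Plod2 (0.43 ± 0.218, adjusted p = 0.629), Col6a4 (1.61 ± 0.834, adjusted p = 0.631) and Col28a1 (−0.91 ± 0.555, adjusted p = 0.657), all on the log2 scale. Plod2, a lysyl hydroxylase of collagen telopeptides, had 10.9, 11, 9.11, 10.2 and 11 CPM in 24mEE, against 10.3, 8.11, 8.1, 9.61 and 9.16 CPM in 24mSC. In young mice it had 10.4, 7.38, 7.42, 9.59 and 12.4 CPM in 5mEE, against 11.2, 10.7, 16.2, 8.6 and 9.45 CPM in 5mSC. Its highest library was 5mSC replicate 3, and the groups overlapped at both ages. Col28a1, a collagen of peripheral nerve, had 0.48, 0.731, 0.317, 0.62 and 0.778 CPM in 24mEE, against 0.867, 0.723, 0.773, 0.648 and 0.863 CPM in 24mSC. In young mice it had 0.441, 0.45, 0.59, 0.767 and 0.316 CPM in 5mEE, against 0.288, 0.792, 0, 0.415 and 0.219 CPM in 5mSC. The 0 in 5mSC replicate 3 allows up to 0.329 CPM, and the groups overlapped at both ages. The interaction without 5mSC replicate 3 was 1.07 ± 0.445 for Lox, 0.21 ± 0.105 for P4ha2 and 0.29 ± 0.183 for Plod2. The median of the 54 genes was 0.12 with all libraries and −0.08 without 5mSC replicate 3.

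Other genes of collagen biology were examined from lists, with 24mSC against 5mSC first and log2 fold changes ± SE from edgeR. Of 14 further modification and folding genes 0 passed and 8 were above 0, and the smallest p were those of the proline isomerase Fkbp14 (−0.27 ± 0.0884) and P3h4 (0.39 ± 0.128). Of 12 genes of export and propeptide cleavage 0 passed and 7 were above 0, and the smallest p were those of the propeptidase enhancer Pcolce (−0.67 ± 0.23) and the propeptidase Bmp1 (−0.35 ± 0.156). Of 10 collagen receptors 0 passed and 5 were above 0, and the smallest p were those of the matrix receptor Cd44 (1.14 ± 0.278) and the integrin chain Itga10 (−0.81 ± 0.287). Of 11 genes of collagen breakdown 0 passed and 7 were above 0, and the smallest p were those of the protease inhibitors Timp2 (0.61 ± 0.199) and Timp4 (−0.27 ± 0.134). Of 14 other basement membrane genes 0 passed and 8 were above 0, and the smallest p was that of the laminin chain Lama3 (0.63 ± 0.245). Of 17 other interstitial matrix genes 0 passed and 6 were above 0, and the smallest p were those of Sparc, a collagen-binding protein (0.46 ± 0.125) and Fbln5, an organiser of elastic fibres (0.66 ± 0.192). In old mice Cd44 averaged 2.7 CPM in 24mEE and 7.74 CPM in 24mSC (log2 fold change −1.52 ± 0.279, adjusted p = 0.0911 by edgeR). In 24mEE Fbln5 rose to 6.86 CPM, against 3.02 CPM in 5mEE (log2 fold change 1.19 ± 0.193, adjusted p = 0.0178 by edgeR), and it was the 1 gene of these 6 lists that passed in any of the 5 comparisons with all 20 libraries. Without 5mSC replicate 3, Cd44 rose in 24mSC against 5mSC (1.33 ± 0.268, adjusted p = 0.0116 by edgeR), as did Lair1, an inhibitory collagen receptor of immune cells (0.41 ± 0.107, adjusted p = 0.0388).

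Cell type markers were read beside these values, again for 24mSC against 5mSC by edgeR. Of 10 markers of pericytes and smooth muscle 7 were below 0, and Tagln, a smooth muscle protein, fell (−0.97 ± 0.195, adjusted p = 0.0239). Of 7 microglia markers 7 were above 0, and the chemokine receptor Cx3cr1 rose (0.54 ± 0.123, adjusted p = 0.0433). Of 6 markers of oligodendrocyte precursors 5 were above 0, and Gpr17, a receptor of these cells, fell (−0.87 ± 0.126, adjusted p = 0.00369). Among 10 endothelial markers 6 were above 0 and among 8 astrocyte markers 7, with 0 passing in each. Among 10 choroid plexus markers 8 were below 0, among 11 neuronal markers 3, among 8 neocortex markers 3 and among 6 thalamus and habenula markers 4, with 0 passing in each. These tallies include 5mSC replicate 3. When it was left out, 8 of the 10 choroid plexus markers were above 0 and 1 of them passed, Prlr (0.71 ± 0.197, adjusted p = 0.0476 by edgeR). Tagln (−1.03 ± 0.195, adjusted p = 0.00824), Cx3cr1 (0.42 ± 0.0882, adjusted p = 0.0155) and Gpr17 (−0.96 ± 0.112, adjusted p = 0.000172) passed again in the same direction, the smooth muscle actin Acta2 fell (−1.03 ± 0.267, adjusted p = 0.0388) and the astrocyte filament Gfap rose (0.56 ± 0.149, adjusted p = 0.0402). The part of these differences in the values of the collagen genes was not tested.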

How the data were processed

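RNA of mouse hippocampus was sequenced as single reads of 50 nt with a kit that does not mark the strand. The deposited values are raw counts of reads per Ensembl gene on GRCm38, which the authors made, per the labels, with STAR 2.4.1d for alignment, featureCounts 1.4.6-p4 for counting and bcl2fastq 1.8.2 before both. Symbols and exon lengths were taken from GENCODE M21 (98.9% of identifiers matched). In R 4.3.3 with edgeR 4.0.16, filterByExpr (least count 10, least total 15) left 16692 genes, TMM scaled the libraries, and 1 quasi-likelihood model of the 4 groups was fitted to all 20 libraries. Benjamini-Hochberg adjustment covered every gene tested in a comparison, and the threshold for passing was an adjusted p of 0.05. The SE is the one implied by the F statistic. The test was tried on simulated data.

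Named in full are the genes that passed or, where fewer than 6 did, the 6 with the smallest p, and by level the 2 highest per length in each class. Col1a2, Col6a3, Col24a1, Col4a3 and Col18a1 were chosen after their values were seen. Of the other lists, 6 of matrix genes and 10 of cell type markers, the 2 matrix genes with the smallest p and the markers that passed are named, except 1 gene that is not reported here. The members and lists were chosen with earlier results of these data known. Alternatives were DESeq2 1.42.0 (size factors; Wald test), other filters, 18 libraries, the 2 groups alone, each library left out, and the longest transcript as length. The lists without 5mSC replicate 3 were an alternative chosen after the data were seen. Limits of detection cover counting error only.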

Additional observations from a re-analysis of the deposited data

Results flagged for a closer look

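Among the 33 genes named by rule, the highest or lowest library of a group of 5 was set against the rest by Dixon's ratio, and 15 of 132 sets lay beyond the 95% limit. Chance alone gives about 1 in 20. In 8 of the 15 the library was 5mSC replicate 3, each time the highest of its group: Col11a1 at 30.3 CPM against 13.6 to 18.1 CPM, Col26a1 at 10.4 CPM against 2.28 to 3.78 CPM, Col6a1 at 59.3 CPM against 16.5 to 25.9 CPM, Col7a1 at 8.77 CPM against 2.44 to 4.03 CPM, Col8a1 at 2.3 CPM against 0.267 to 0.438 CPM, Col8a2 at 10.2 CPM against 0.72 to 1.25 CPM, Lox at 1.75 CPM against 0.407 to 0.563 CPM, and P4ha2 at 36.6 CPM against 24.2 to 27.4 CPM.

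The other 7 lay in other libraries. Col19a1 reached 27.6 CPM in 5mEE replicate 3 against 19.8 to 22 CPM, and Col1a1 reached 5.47 CPM in 5mEE replicate 1 against 4.14 to 4.39 CPM. Col4a2 reached 78.8 CPM in 24mSC replicate 1 against 59 to 64.5 CPM. That library had the highest summed level of its group in endothelial markers (373 CPM, group median 220 CPM) and in pericyte and smooth muscle markers (299 CPM, group median 204 CPM). Their part in the Col4a2 value was not tested. Col9a2 reached 4.26 CPM in 24mEE replicate 2 against 2.36 to 2.88 CPM, and Loxl1 reached 4.39 CPM in 24mEE replicate 4 against 2.41 to 2.88 CPM. Low libraries were Lox at 0.0843 CPM in 5mEE replicate 3 against 0.225 to 0.265 CPM and Serpinh1 at 9.92 CPM in 24mEE replicate 3 against 10.9 to 11.2 CPM.

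For Col7a1, the anchoring fibril collagen, every 24mEE library lay above the 24mSC mean (a mean difference of 0.325 CPM), whereas every 5mEE library lay below the 5mSC mean (a mean difference of −0.555 CPM), a mean that includes 5mSC replicate 3. By edgeR the log2 fold change of Col7a1 for 5mEE against 5mSC was −0.15 ± 0.232 and the interaction was 0.29 ± 0.33, adjusted p = 0.806. Both signs turned without 5mSC replicate 3, to 0.20 ± 0.133 for 5mEE against 5mSC and −0.06 ± 0.186, adjusted p = 0.943 for the interaction.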

How the results depend on the processing

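Of the log2 fold changes given for collagen and processing genes with all 20 libraries, those of Col7a1 turned sign, in 2 of 16 alternatives for 5mEE against 5mSC and in 2 of 25 for the interaction, and the others kept their direction under the alternatives run. Genes at an unadjusted p under 0.05 numbered 3 to 12 higher and 6 to 15 lower over the alternatives for 24mSC against 5mSC, 0 to 3 and 3 to 12 for 24mEE against 24mSC, 0 to 2 and 5 to 14 for 5mEE against 5mSC, 3 to 5 and 2 to 8 for 24mEE against 5mEE, and 1 to 4 above and 0 to 3 below 0 for the interaction. Of all genes, 8.72% were higher and 11.7% lower for 24mSC against 5mSC with all libraries, and 10.6% and 11.7% without 5mSC replicate 3. In 24mEE against 24mSC these shares were 2.22% and 3.99% with all libraries, and 6.43% and 7.33% without 5mSC replicates 1 and 3. The share of all genes at each end of a range is not given. For 24mSC against 5mSC, where 1 gene passed, DESeq2's Wald test gave 7, the fit without 5mSC replicates 1 and 3 gave 3, and no filter, a filter at a CPM of 1 and the 2 groups alone gave 0 each. Leaving out 1 library gave 0 to 8. At a CPM of 1 Col6a6 is not tested. For 24mEE against 24mSC, where 0 passed, the 2 groups alone gave 1 (Col23a1). For 24mEE against 5mEE, where 0 passed, the Wald test gave 1, the 2 groups alone 1 and the 18 libraries 2. Leaving out 1 library gave 0 in these 2 comparisons, for 5mEE against 5mSC and for the interaction. The cause of these shifts was not tested. Level per length moved by more than the spread between libraries for 15 of 33 genes with the longest transcript. No paired analysis was possible because replicate numbers follow the order of deposition. The labels give no sequencing run, so no value within a run could be had. Genes with few counts a library, such as Lox, Col6a6 and Col8a1, are limited by depth.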
